A study of Mus musculus with 12 samples.

Results

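Genes of B cells and of the antibodies they make were measured in single-cell RNA sequencing libraries of sorted PD-1+CD44+CD8+ T cells, a gate that is not meant to hold B cells. The genes described are 8 of 18992 in the deposited tables, taken by name: *Cd79a*, *Cd79b*, *Ms4a1*, *Ighm*, *Ighd*, *Igkc*, *Jchain* and *Mzb1*. All of them had a row in each of the 3 tables. The cells came from NZB/W F1 mice, a cross between NZB and NZW in which lupus nephritis sets in spontaneously, and the labels name no engineered allele and no agent. Spleens of mice aged 12 weeks gave the 12W spleen library, and mice aged 28 weeks gave 28W spleen and 28W kidney. The labels list 12 samples, 4 per group, but the deposited tables pool each group, so each of the 3 groups is 1 library with no replicate, and the number of mice behind it is not stated. For 28W spleen the titles say 28W, which was followed, but 12 weeks is written under age.

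B cells carry membrane immunoglobulin that signals through the CD79A and CD79B proteins. On activation some of them become plasmablasts and plasma cells, which lose much of this surface machinery and secrete antibody in bulk. In lupus nephritis, antibodies against nuclear antigens deposit in the kidney. The members therefore cover the receptor and another surface protein of resting and activated B cells (*Cd79a*, *Cd79b* and *Ighd*, and *Ms4a1*), the chains of the antibody itself (*Ighm*, *Igkc*) and the assembly of secreted antibody (*Jchain*, *Mzb1*).

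The libraries held 6894 cells (12W spleen), 6481 cells (28W spleen) and 7135 cells (28W kidney), which the authors had divided into 10, 11 and 12 clusters. Totals were 34742303, 32023473 and 29937384 unique molecular identifiers (UMIs, each the tag of 1 captured transcript). Clusters differed in depth, from 928 to 14345 UMIs per cell. Levels are given per 1000000 UMIs of a library or of a cluster (CPM). Intervals in parentheses are 95% counting intervals and cover counting error only. They are too narrow as a measure of biological spread, because the UMIs of 1 cell are not independent and no library has a replicate. In such sums, fewer cells of a type cannot be told apart from less RNA per cell. The libraries shared 52 to 66 cell barcodes in pairs, and 3 barcodes were in all 3.

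The sort label was first set against marker genes. T cell markers (9 genes including *Cd3e*, *Cd8a* and *Trac*) were present in every cluster, from 1457 to 10138 CPM in sum. The lowest sum, 1457 CPM, lay in cluster 10 of 28W spleen, and cluster 8 of 28W kidney had 3120 CPM. Those are also the clusters with the highest *Cd79a*, but low T cell markers and high *Cd79a* did not always go together. Among kidney clusters without raised immunoglobulin transcripts (described below), T cell markers went down to 1622 CPM, while *Cd79a* was at most 2.89 CPM. In 12W spleen cluster 3, with 160 CPM of *Cd79a*, T cell markers summed to 5735 CPM. B cell defining markers (among them *Cd79a*, *Cd79b*, *Ms4a1* and *Pax5*) summed to 2481 CPM in 28W spleen cluster 10 and 1713 CPM in 28W kidney cluster 8. They summed to 10.9 to 56.7 CPM in the 25 clusters without raised immunoglobulin transcripts. The label of a CD8+ T cell sort thus did not cover all transcripts found in 28W spleen cluster 10 and 28W kidney cluster 8. Which cells carry these transcripts was not tested.

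*Cd79a* (chr7:24897381-24902197, plus strand, GRCm38) encodes a signalling chain of the B cell receptor. Its library level was 12.2 CPM (11 to 13.4) in 12W spleen, 28.3 CPM (26.5 to 30.2) in 28W spleen and 112 CPM (108 to 116) in 28W kidney. The 3 intervals did not overlap. Within libraries a single cluster held most of it: cluster 3 of 12W spleen had 85.1% (81.4 to 88.4) of its UMIs, cluster 10 of 28W spleen 91.2% (89.1 to 92.9) and cluster 8 of 28W kidney 89.7% (88.6 to 90.7). Over the 33 clusters it ran from 0, in 4 of them, to 1196 CPM (1115 to 1280) in 28W spleen cluster 10. Kidney cluster 8 was next at 1074 CPM (1036 to 1113), whose interval did not overlap the former. The third and the fourth, 12W spleen cluster 3 with 160 CPM (144 to 177) and kidney cluster 2 with 130 CPM (108 to 155), overlapped.

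*Cd79b* (chr11:106311341-106314762, minus strand), the partner chain, was spread quite differently. It reached 42.5 CPM (40.4 to 44.7) in 12W spleen, 50.7 CPM (48.3 to 53.3) in 28W spleen and 46.8 CPM (44.4 to 49.3) in 28W kidney. No cluster was at 0, and the lowest was kidney cluster 6 with 10.3 CPM. The cluster richest in it held 29.5% (27.3 to 31.8) of its UMIs in 28W spleen (cluster 10, 694 CPM) and 58.3% (55.7 to 60.9) in kidney (cluster 8, 292 CPM). In 12W spleen, cluster 4 held more of its UMIs (20.4%) than cluster 3 did (18.2%). The 2 chains of the same receptor thus had unequal distributions in these libraries: where *Cd79a* was almost absent, *Cd79b* was still counted.

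*Ms4a1* (chr19:11249675-11266241, minus strand) encodes CD20, a surface protein of B cells that plasma cells lose. It was at 3.68 CPM (3.07 to 4.38) in 12W spleen, 9.68 CPM (8.63 to 10.8) in 28W spleen and 22.2 CPM (20.6 to 24) in 28W kidney. The clusters leading for *Cd79a* led here as well, with 51.0 CPM in 12W spleen cluster 3, 405 CPM in 28W spleen cluster 10 and 225 CPM in kidney cluster 8. They held 89.8%, 90.3% and 94.9% of its UMIs. All other clusters were at or under 5.39 CPM, and 13 of 33 were at 0. A count of 0, taken to allow up to 3 counts, leaves room for 10.8 CPM in the shallowest cluster (28W spleen cluster 11), and its exact 95% interval ends at 13.3 CPM.

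*Ighm* (chr12:113418558-113422730, minus strand), the constant region of the mu heavy chain, had the narrowest range over the 33 clusters relative to its lowest level, while *Cd79b* varied less between libraries. Its levels were 210 CPM (205 to 215) in 12W spleen, 195 CPM (190 to 200) in 28W spleen and 240 CPM (234 to 245) in 28W kidney. The lowest cluster, 12W spleen cluster 7, still had 73.8 CPM (368 UMIs). The highest were 28W spleen cluster 10 with 1895 CPM (1794 to 2001) and kidney cluster 8 with 983 CPM (946 to 1020). *Ighd* (chr12:113406604-113416324, minus strand), the delta heavy chain of naive B cells, was scarce, with 36, 49 and 64 UMIs in the 3 libraries (1.04, 1.53 and 2.14 CPM). Of these, 30 lay in 28W spleen cluster 10 and 59 in kidney cluster 8, but only 7 in 12W spleen cluster 3.

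*Igkc* (chr6:70726435-70726966, plus strand) encodes the constant region of the kappa light chain. It was at 42.9 CPM (40.8 to 45.2) in 12W spleen, 108 CPM (104 to 112) in 28W spleen and 755 CPM (746 to 765) in 28W kidney. In spleen it lay mainly in cluster 3 at 12W (94.0%) and cluster 10 at 28W (77.6%). In kidney it was divided: cluster 11 held 39.6%, cluster 7 26.6%, cluster 8 15.5% and cluster 2 14.2%. By level, kidney cluster 7 with 4049 CPM (3948 to 4153) and 28W spleen cluster 10 with 3876 CPM (3730 to 4025) overlapped at the top, followed by kidney cluster 2 (3326 CPM), kidney cluster 11 (2185 CPM) and kidney cluster 8 (1254 CPM), each outside the interval of the next.

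*Jchain* (chr5:88519809-88527891, minus strand) encodes the joining chain of secreted IgM and IgA polymers. Its levels were 171 CPM (167 to 176) in 12W spleen, 193 CPM (188 to 197) in 28W spleen and 1034 CPM (1023 to 1046) in 28W kidney. It was the most abundant member in kidney, where cluster 2 reached 14482 CPM, the highest level of any member in any cluster. Cluster 2 held 45.2% of kidney *Jchain*, cluster 7 27.7% and cluster 8 24.2%. In 28W spleen, clusters 10 (61.9%) and 8 (30.7%) shared it, while in 12W spleen cluster 3 had 98.7%. *Mzb1* encodes a chaperone of the endoplasmic reticulum that helps to assemble and secrete antibody. It was at 9.04 CPM (8.07 to 10.1) in 12W spleen, 25.3 CPM (23.6 to 27.1) in 28W spleen and 109 CPM (105 to 113) in 28W kidney. It led in 28W spleen cluster 10 (992 CPM) and kidney cluster 8 (789 CPM), as *Cd79a* did, but kidney clusters 2 (423 CPM) and 7 (356 CPM) came next.

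**Figure D1:**
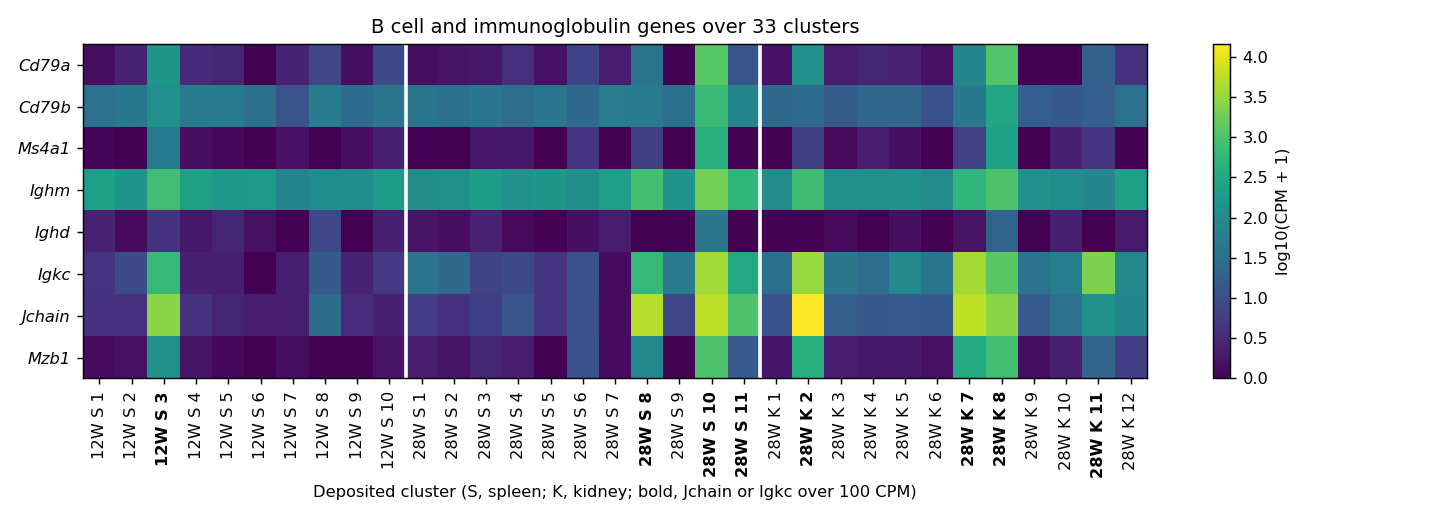
Level of each of the 8 genes (rows) in each of the 33 deposited clusters (columns, S for spleen and K for kidney), coloured by log10(CPM + 1). *Cd79b*, *Ighm* and *Jchain* are above 0 in all columns, and *Jchain*, *Igkc*, *Mzb1*, *Cd79a* and *Ms4a1* are highest in columns with bold names.

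In summed level, the members made up 492 CPM in 12W spleen, 611 CPM in 28W spleen and 2322 CPM in 28W kidney. Between spleen libraries, this was 1.24 times higher at 28W than at 12W (1.21 to 1.27). Between organs at 28W, kidney was 3.80 times higher than spleen (3.74 to 3.86). At least 2-fold (log2 of CPM + 1, which understates changes of low genes), 4 of 8 members were higher in 28W than in 12W spleen, and 1.84% of all 12412 genes with at least 20 UMIs were. The members were *Mzb1* with a ratio of 2.80 (2.46 to 3.20), *Ms4a1* with 2.63 (2.13 to 3.25), *Igkc* with 2.51 (2.37 to 2.67) and *Cd79a* with 2.33 (2.07 to 2.62). *Cd79b* with 1.19 (1.11 to 1.28), *Jchain* with 1.12 (1.08 to 1.17) and *Ighm* with 0.928 (0.897 to 0.960) were within 2-fold, and the interval of *Ighd* held 1. *Cd79a* was under 2-fold with deposited cluster means averaged over cells (log2 ratio 0.92) and without the cluster of each library highest in it (0.40). The median log2 ratio was 0.73 over the members and -0.08 over all genes tested.

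By organ, 5 of 8 members were at least 2-fold higher in kidney, against 8.77% of 13189 genes. The ratios were 7.0 (6.75 to 7.26) for *Igkc*, 5.37 (5.23 to 5.52) for *Jchain*, 4.30 (3.98 to 4.65) for *Mzb1*, 3.96 (3.68 to 4.26) for *Cd79a* and 2.29 (2.0 to 2.63) for *Ms4a1*. *Ighm* was 1.23 times higher (1.19 to 1.27), *Cd79b* was at 0.922 (0.858 to 0.991) of its spleen level, and the interval of *Ighd* again held 1. *Ms4a1* was under 2-fold with deposited cluster means averaged over cells (log2 ratio 0.20) and without the clusters highest in *Cd79a* (0.39). No member was 2-fold lower in either comparison. The median log2 ratio was 1.53 over the members and 0.11 over all genes. These comparisons set 1 library against 1 other, share 28W spleen, and cannot show a difference between ages or organs beyond these libraries. For kidney the methods describe collagenase digestion and for spleen they do not, so that digestion and organ cannot be told apart.

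**Figure D2:**
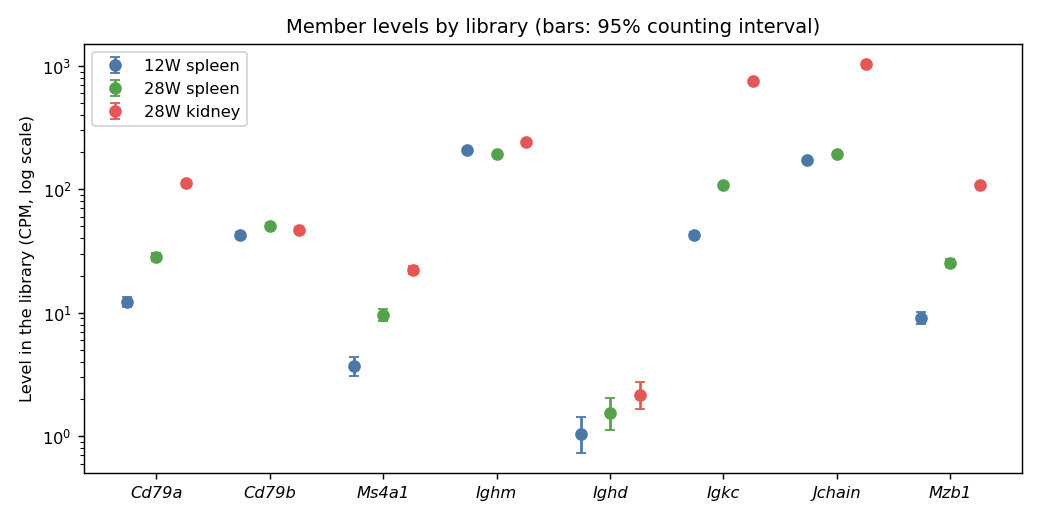
Level of each member in each of the 3 libraries in CPM on a log axis, with 95% counting intervals as bars. *Igkc*, *Jchain*, *Mzb1*, *Cd79a* and *Ms4a1* are highest in 28W kidney, while *Cd79b* and *Ighm* lie close together in all 3.

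A group of 8 clusters with *Jchain* or *Igkc* over 100 CPM (4185 cells) was set against the other 25 clusters (16325 cells). These are cluster 3 of 12W spleen, clusters 8, 10 and 11 of 28W spleen and clusters 2, 7, 8 and 11 of 28W kidney. The threshold was chosen after the values were seen, so that *Jchain* and *Igkc* are higher in them by construction. By the higher of these genes, the lowest cluster inside was 28W spleen cluster 11 with 1004 CPM of *Jchain*, and the nearest outside were kidney clusters 5 and 12 with 90.3 and 89.6 CPM of *Igkc*. The 8 clusters held 85.1% of the *Cd79a* UMIs of 12W spleen, 93.2% of those of 28W spleen and 99.4% of those of 28W kidney. For *Mzb1* the shares were, in the same order, 95.9%, 89.4% and 99.4%. For *Ighm*, in contrast, the shares were 23.9%, 28.5% and 64.7%, and for *Cd79b* 18.2%, 32.1% and 70.0%.

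In sum, most of the higher level at 28W and in kidney lay in these clusters. This is in part by construction, since the clusters were cut on *Jchain* and *Igkc*. These made up 44.6% and 32.5% of the member UMIs of 28W kidney. The sum of the members in the other 25 clusters was 217 CPM in 12W spleen, 208 CPM in 28W spleen and 209 CPM in 28W kidney. Their ratio was 0.960 (0.928 to 0.993) by age, and 1.01 (0.967 to 1.04) when kidney was set against spleen. *Ighm* was then at 171, 145 and 123 CPM and *Cd79b* at 37.2, 36.0 and 20.4 CPM. *Cd79a* was at 1.94, 2.02 and 0.971 CPM, so its ratio by organ was 0.481 (0.275 to 0.806) in place of 3.96. *Mzb1* was likewise lower in kidney, 0.364 (0.214 to 0.591) of its level in 28W spleen, from 86 and 21 UMIs. *Igkc* and *Jchain* kept the same direction, with ratios of 3.07 (2.74 to 3.45) and 3.18 (2.65 to 3.83) by organ. *Ms4a1*, from 28 and 7 UMIs, was at 0.372 (0.137 to 0.873). For *Cd79a*, *Ms4a1* and *Mzb1* these lower values rest largely on cluster 6 of 28W spleen, with 5.90, 3.26 and 10.1 CPM. The medians over these 28W spleen clusters were 0.732, 0 and 0.878 CPM. In kidney the medians were 0.831, 0.134 and 0.897 CPM, so most clusters did not show the difference. By age the ratios in these clusters were 5.31 (4.22 to 6.73) for *Igkc* and 2.30 (1.76 to 3.04) for *Jchain*. They were 7.01 (3.89 to 13.7, from 13 and 86 UMIs) for *Mzb1* and 2.28 (1.14 to 4.80, from 13 and 28 UMIs) for *Ms4a1*. For *Mzb1* and *Ms4a1* the 28W side again includes cluster 6. The intervals of *Cd79a*, *Cd79b* and *Ighd* held 1. How many of all genes differ between these clusters was not counted. The sum is mostly *Ighm*, which was lower, at 0.851 (0.818 to 0.886) of its 12W level.

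*Ighm* in the 25 clusters came with few variable segments. In a rearranged heavy chain transcript a variable (V) segment lies upstream of the constant region, and a 5′ library reads mostly from that end, so a complete heavy chain can be counted under its *Ighv* segment as well as under *Ighm*. In 12W spleen the 9 other clusters held 5547 UMIs of *Ighm* and 99 of all *Ighv* segments, or 0.0179 *Ighv* UMIs for each of *Ighm* (0.0145 to 0.0218). Cluster 3 had 4.22 (4.0 to 4.45). In 28W spleen the other clusters had 0.0772 (0.0689 to 0.0861), and cluster 10 had 7.80 (7.36 to 8.26). In kidney they had 0.119 (0.106 to 0.134), and cluster 8 had 8.78 (8.44 to 9.14). *Ighm* in the clusters without raised *Jchain* or *Igkc* thus had few V segment UMIs beside it, whereas in the 8 raised clusters the lowest value was 1.23 (0.992 to 1.54), in 28W spleen cluster 11.

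The 8 clusters differed among themselves in which members they held. In 28W spleen cluster 10, in 12W spleen cluster 3 and in kidney cluster 8, surface and secretory genes were present together. In cluster 10, 8 of 8 members were at least 2-fold over the other clusters of the library (9.04% of all genes were), as in 12W spleen cluster 3 (8 of 8, 3.58%). In kidney cluster 8 it was 7 of 8, all but *Igkc* (6.49%). In the remaining 5, the surface genes *Cd79a*, *Cd79b*, *Ms4a1* and *Ighd* were not among those higher, which numbered 4 of 8 in 28W spleen cluster 8 (5.18%), 3 in 28W spleen cluster 11 (36.2%), 4 in kidney cluster 2 (17.6%), 4 in kidney cluster 7 (13.2%) and 1, *Igkc*, in kidney cluster 11 (6.28%). For 28W spleen cluster 11 the count of members was near the share of all genes. The other clusters of a library here include its further raised clusters, which hold most *Cd79a*. Against the clusters without raised *Jchain* or *Igkc*, *Cd79a* was higher in 4 of these 5 as well: it was at 130, 85.6 and 17.8 CPM in kidney clusters 2, 7 and 11, where those had 0.971 CPM, and at 39.1 CPM in 28W spleen cluster 8, where those had 2.02 CPM. In 28W spleen cluster 11 it was at 10.8 CPM (2.23 to 31.7), from 3 UMIs. The authors' clusters were made from these same genes, so these counts are a description.

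The ratio of *Jchain* to *Cd79a* showed the range. It was 2.49 UMIs of *Jchain* for each of *Cd79a* (2.39 to 2.60) in kidney cluster 8, 4.62 (4.28 to 4.98) in 28W spleen cluster 10, 7.01 (5.48 to 9.09) in kidney cluster 11 and 16.3 (14.7 to 18.2) in 12W spleen cluster 3. It was 67.6 (56.7 to 81.1) in kidney cluster 7, 92.7 (31.4 to 452) in 28W spleen cluster 11, 111 (93.3 to 134) in kidney cluster 2 and 126 (76.4 to 226) in 28W spleen cluster 8. *Mzb1* varied less against *Cd79a*, from 0.735 (0.695 to 0.777) in kidney cluster 8 to 4.16 (3.42 to 5.09) in kidney cluster 7. *Ms4a1* for each *Cd79a* went the other way, with 0.339 (0.295 to 0.388) in 28W spleen cluster 10 and 0.0397 (0.0127 to 0.0951) in kidney cluster 2. Kidney clusters 2 and 7 thus had little *Cd79a* and *Ms4a1* for their *Jchain*, though more *Cd79a* than the clusters outside the group, and their members were not in the proportions of cluster 8 of the same library.

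**Figure D3:**
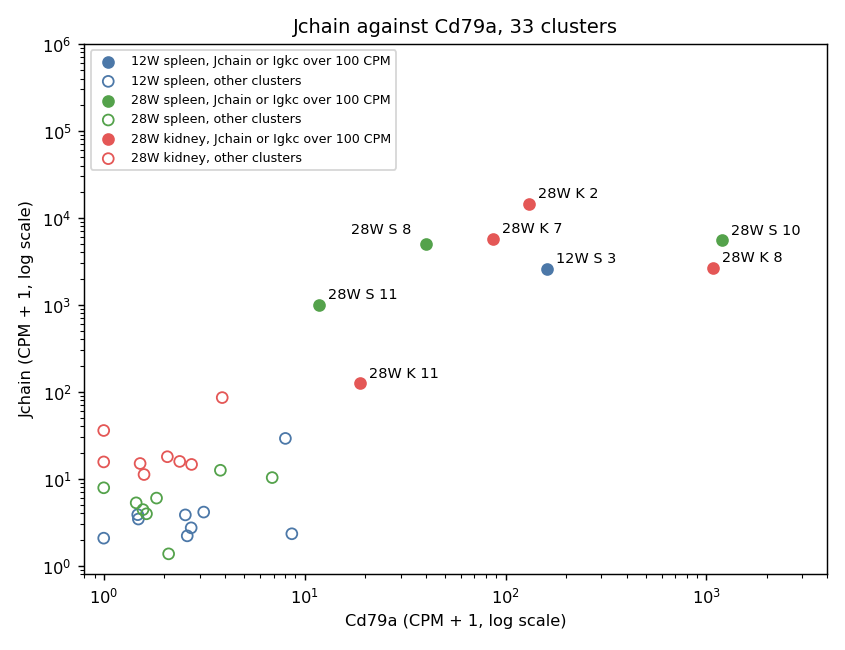
*Jchain* against *Cd79a* in CPM + 1 on log axes, 1 point for each of the 33 clusters, filled where *Jchain* or *Igkc* is over 100 CPM. Filled points at similar *Jchain* differ widely in *Cd79a*, from 39.1 CPM in 28W spleen cluster 8 to 1196 CPM in 28W spleen cluster 10.

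Other transcripts set these clusters apart too. Erythroid markers (haemoglobin chains and *Alas2*) summed to 40824 CPM in 28W spleen cluster 8 and 37158 CPM in 12W spleen cluster 3, with 2147 CPM in kidney cluster 2 and 1809 CPM in kidney cluster 11, against at most 38.6 CPM in the 25 other clusters. Kidney tubule markers summed to 4730 CPM in kidney cluster 7 and 548 CPM in kidney cluster 2. Myeloid markers (8 genes) were at 1570 CPM in 28W spleen cluster 10, 920 CPM in 28W spleen cluster 8 and 360 CPM in 12W spleen cluster 3, though kidney cluster 12, outside the group, had more at 10490.5 CPM. Plasmacytoid dendritic cell markers (5 genes) summed to 280 CPM in 28W spleen cluster 10, against at most 203 CPM in the 25 other clusters. Of these markers, *Siglech* had 47 UMIs in 28W spleen, all in cluster 10, and *Klk1*, *Cox6a2* and *Tcf4* were also higher there. *Runx2* went the other way, with 13.0 CPM in cluster 10 and 18.9 CPM in the rest of that library. Kidney clusters 2 and 7 and 28W spleen clusters 8 and 11 were shallow, with 1200, 2570, 1020 and 1288 UMIs per cell. So were 12W spleen cluster 3 with 2124 and 28W spleen cluster 10 with 2801, where surface genes were present. Low depth was not particular to the group. Outside it, 12W spleen cluster 8 had 928 UMIs per cell and 28W spleen cluster 9 had 1706. Inside it, kidney clusters 8 and 11 had 5151 and 11404. T cell markers in the 8 clusters summed to 1457 to 7230 CPM (median 5252), against 1622 to 10138 CPM (median 6841) in the other 25. The part of these cell types and of depth in the levels of the members was not tested.

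Kidney cluster 11 had the largest number of *Igkc* UMIs (8947) with little *Jchain* (512) and *Ighm* (345). It had 25.9 *Igkc* UMIs for each of *Ighm* (23.3 to 29.0), whereas kidney cluster 8 had 1.28 (1.21 to 1.34). Its *Jchain* for each *Igkc* was 0.0572 (0.0522 to 0.0626), and kidney cluster 2 had 4.35 (4.19 to 4.53). *Igkv* segments were counted 1.40 times for each *Igkc* (1.37 to 1.44) in cluster 11 and 27.4 times (26.4 to 28.3) in cluster 2. Its T cell markers stood at 6660 CPM, and its depth was 11404 UMIs per cell, the highest in kidney.

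Heavy chain constant genes show which antibody class a transcript encodes. Before switching B cells make IgM and IgD, and after it IgG, IgA or IgE. In 12W spleen, 0.381% (0.253 to 0.550) of heavy chain constant UMIs (28 of 7353) were of switched classes. In 28W spleen the share was 16.1% (15.2 to 16.9), and kidney at 28W had 58.4% (57.6 to 59.1). The denominators hold the *Ighm* of the 25 other clusters, so the shares within clusters are given next. In 12W spleen cluster 3, 1.46% (0.959 to 2.14) of 1775 UMIs were switched. In 28W spleen cluster 10 it was 43.8% (41.8 to 45.8), with *Ighg2c* (18.7%) and *Ighg3* (18.2%) leading. In 28W spleen cluster 8 it was 4.33% (2.39 to 7.17) and in cluster 11 8.33% (4.63 to 13.6), from 14 UMIs each.

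In kidney each of the 4 clusters had a class of its own in the lead. *Igha* made up 55.4% (53.8 to 57.1) of heavy chain constant UMIs in cluster 2, *Ighg2b* 49.1% (47.8 to 50.4) in cluster 7, *Ighm* 75.9% (74.5 to 77.3) in cluster 8 and *Ighg1* 69.0% (66.3 to 71.6) in cluster 11. Switched classes together were 79.7%, 86.4%, 22.5% and 71.5%. Among the other kidney clusters, switched classes made up 14.1% (12.9 to 15.4) of 2952 UMIs, and cluster 3 had *Igha* at 30.0% (203 of 676 UMIs). The sequences of *Ighg2b* and *Ighg2c* are related and reads can be divided between them uncertainly. No row of the tables is named *Ighg2a*.

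**Figure D4:**
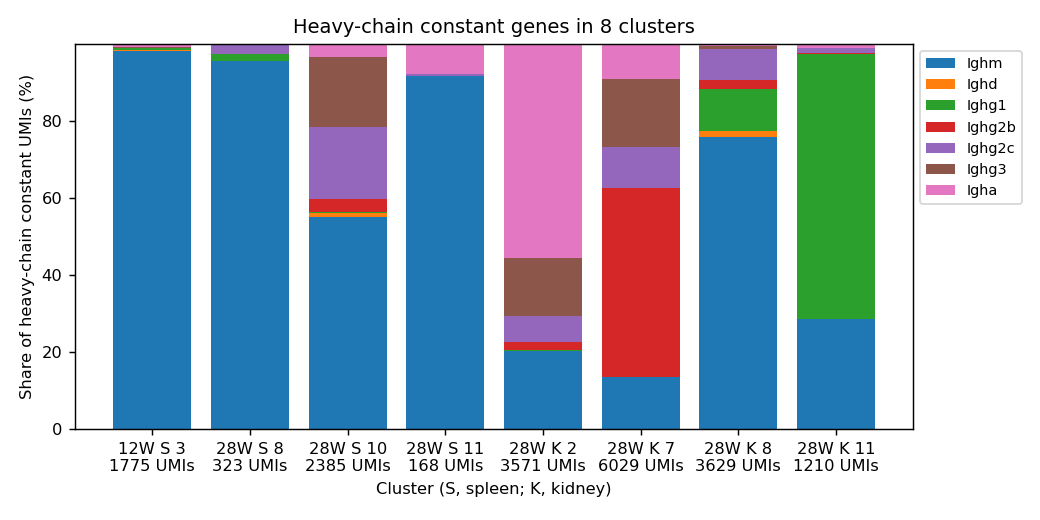
Share of heavy chain constant UMIs taken by each gene in the 8 clusters with *Jchain* or *Igkc* over 100 CPM, with the total UMIs under each bar (S, spleen; K, kidney). *Ighm* leads in all spleen bars, and kidney bars 2, 7 and 11 are led by *Igha*, *Ighg2b* and *Ighg1*.

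Light chains of the lambda class were counted next to *Igkc*. Lambda constant genes made up 39.5% (38.2 to 40.7) of light chain constant UMIs in kidney cluster 8, 32.1% (30.1 to 34.2) in 12W spleen cluster 3, 28.5% (27.0 to 29.9) in 28W spleen cluster 10, 13.0% (12.0 to 14.1) in kidney cluster 2 and 11.2% (10.4 to 12.0) in kidney cluster 7. Kidney cluster 11 had 1.37% (1.14 to 1.63). In 28W spleen, cluster 8 had 32.6% (27.6 to 37.8) of 344 UMIs and cluster 11 had 32.8% (25.1 to 41.4) of 137. Since a 5′ read often falls on the V segment, these are shares of reads assigned to constant genes and not of chains. *Iglc2* and *Iglc3* were among the genes most like *Cd79a* (below), and their exons are nearly the same. Of 314 coding bases compared, 11 differed (96.5% identity). A stretch of 120 bases at the start of the constant exon in the GENCODE M21 transcripts (GRCm38, *Iglc2* at chr16:19198396-19200351 and *Iglc3* at chr16:19065230-19065681, both minus strand) is shown, with the 7 differing bases in capitals. A read that lies wholly within this stretch and covers none of these bases cannot be assigned to either gene.
Iglc2: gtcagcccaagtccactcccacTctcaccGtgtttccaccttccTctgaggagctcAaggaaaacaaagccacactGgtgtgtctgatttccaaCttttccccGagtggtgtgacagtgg
Iglc3: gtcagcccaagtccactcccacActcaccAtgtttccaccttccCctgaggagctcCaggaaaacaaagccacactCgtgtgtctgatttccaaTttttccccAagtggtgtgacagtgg

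V segments are the part of an antibody gene that differs between B cell clones. *Igkv* segments were more abundant than *Igkc* in all 3 libraries. They summed to 1093 CPM in 12W spleen, 1078 CPM in 28W spleen and 7219 CPM in 28W kidney, and *Ighv* segments to 214, 423 and 3051 CPM. The 8 clusters held 98.7%, 97.5% and 99.7% of *Ighv* UMIs. Among clusters with at least 150 UMIs of the family, the leading *Ighv* segment took 18.6% to 98.4% of them (median 39.5%, 9 clusters) and the leading *Igkv* segment 23.0% to 99.2% (median 46.9%, 12 clusters). In kidney cluster 11 a pair of segments dominated: *Ighv1-19* (chr12:114708648-114709135) had 85.1% (84.2 to 86.0) of 6284 UMIs and *Igkv3-4* (chr6:70671788-70672377) 95.9% (95.5 to 96.2) of 12550 UMIs. In 28W spleen cluster 11, *Ighv2-9* had 98.4% (95.5 to 99.7) of 190 UMIs and *Igkv6-15* (chr6:70406469-70406992) 99.2% (98.6 to 99.5) of 1904 UMIs. Outside the 8 clusters, *Igkv1-117* had 94.0% (92.4 to 95.3) of 1112 *Igkv* UMIs in kidney cluster 12, where the family summed to 1071 CPM. In 28W spleen cluster 4, also outside, *Igkv3-2* had 86.4% (82.4 to 89.8) of 360 UMIs. In 12W spleen cluster 3 the lead was smaller, with *Ighv1-55* at 18.6% (17.8 to 19.6) and *Igkv12-89* at 50.7% (50.2 to 51.2). How many cells a leading segment rests on cannot be read from the pooled tables.

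*Ighv1-14* led in 4 clusters, namely 28W spleen cluster 8 (43.9% of *Ighv* UMIs) and kidney clusters 2 (39.5%), 7 (28.8%) and 8 (55.0%). GENCODE M21 lists this segment (chr12:114646572-114647056, minus strand) as a pseudogene. The start of its leader is shown next to that of *Ighv1-19*, a segment of the same family annotated as functional, with codon 5 from the start codon in capitals.
Ighv1-14: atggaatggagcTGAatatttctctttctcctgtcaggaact
Ighv1-19: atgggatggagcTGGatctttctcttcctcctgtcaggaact

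Counted from 1 at the first base of the start codon, the substitution G15A between *Ighv1-19* and *Ighv1-14* makes this codon a stop. It is the only stop codon in frame in the 351 bases of *Ighv1-14*, and *Ighv1-19* has none. Over those 351 bases the segments differ at 39 (88.9% identity). The 294 bases that follow the leader of *Ighv1-14* in the reference are given, since this segment led in the cluster with the highest *Jchain* level, with the last cysteine codon in capitals.
Ighv1-14: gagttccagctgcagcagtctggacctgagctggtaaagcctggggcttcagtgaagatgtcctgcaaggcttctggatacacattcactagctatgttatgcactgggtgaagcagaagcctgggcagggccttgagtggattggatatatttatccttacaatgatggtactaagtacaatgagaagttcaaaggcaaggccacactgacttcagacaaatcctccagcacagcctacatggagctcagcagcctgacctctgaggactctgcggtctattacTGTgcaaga

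The reference genome is that of another strain (C57BL/6J) than the mice used. How reads of NZB or NZW segments were assigned, and whether these mice carry this stop codon, was not tested.

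Further genes of B cells were taken from lists. Of 14 co-receptor and signalling genes of the B cell receptor, 3 of 13 with at least 20 UMIs were at least 2-fold higher in 28W than in 12W spleen and none lower, and 8 of 14 were higher in kidney than in 28W spleen and none lower. Of all genes tested, 1.84% were higher by age and 8.77% by organ. In kidney these genes were not confined to the 8 clusters. They summed to 956 CPM in the highest cluster outside (median outside 48.2 CPM) and to at most 1009 CPM inside. *Blk*, a kinase of the receptor, was at 1.44 CPM in 12W spleen, 4.12 CPM in 28W spleen and 13.1 CPM in kidney. In the same order *Fcmr*, the receptor for IgM, was at 3.37, 7.06 and 18.2 CPM. Of 8 transcription factors, none passed 2-fold by age, while by organ *Ebf1*, a factor that sets B cell identity, was higher (3.97 and 27.1 CPM) and *Pou2af1* was lower (18.7 and 8.15 CPM). *Pou2af1* was not confined to the 8 clusters, since 12W spleen cluster 7 led in that library with 61.6 CPM. *Pax5* had only 12, 27 and 59 UMIs. Of 6 receptors for survival, help and homing, none passed by age and 2, *Cd40* and *Ly6d*, were higher by organ.

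Of 9 plasma cell genes, none of the 8 with enough UMIs passed by age and 5 of 9 were higher in kidney. *Prdm1*, which encodes the factor that drives plasma cell formation and also acts in T cells, was at 2.0 CPM in 28W spleen and 12.5 CPM in kidney, and in kidney it was highest in cluster 3 (24.7 CPM) outside the 8 clusters. *Sdc1*, the plasma cell surface protein CD138, was at 0.593 and 5.68 CPM and highest in kidney cluster 2 (38.2 CPM), as were *Derl3* (61.0 CPM) and *Tnfrsf17* (13.4 CPM). *Xbp1*, a factor of the secretory programme, was at 41.2 and 86.2 CPM and highest in kidney cluster 7 (322 CPM). *Creld2*, of the same list, differed from these: it was higher in kidney cluster 8 (205 CPM) than in clusters 2 (117 CPM) and 7 (127 CPM). Of 6 genes for the surrogate light chain and recombination, *Igll1*, *Rag1* and *Rag2* had no row in the tables, and *Vpreb3* was higher in kidney (0.593 and 4.01 CPM). Among MHC class II genes, which B cells share with myeloid cells, 5 of 8 were higher by age and 6 of 8 by organ, and in kidney *Cd74* was highest in the myeloid-marked cluster 12 (24827 CPM). None of 9 T cell markers passed 2-fold in either comparison. All 8 myeloid markers were higher in kidney than in 28W spleen, and 5 of 5 erythroid markers were lower in 28W than in 12W spleen. Of all 13189 genes tested by organ, 1.23% were at least 2-fold lower, and of 12412 by age, 0.935%.

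Among the 10 genes whose levels over the 33 clusters were most like those of *Cd79a* (Pearson's r of log2(CPM + 10), 11128 genes ranked, the members and V segments left out) were *Iglc3* (0.97), *Ly6d* (0.96), *Iglc2* (0.95), *Fcrla* (0.95), *AC133103.1* (0.93), *Bcar3* (0.92), *Fcmr* (0.91), *Ebf1* (0.91) and *Derl3* (0.90). For *Jchain* they were *Iglc1* (0.93), *Iglc2* (0.93), *Xbp1* (0.91), *Derl3* (0.91) and *Iglc3* (0.91). *Mzb1* was most like *Iglc3* (0.99), *Iglc2* (0.98), *Derl3* (0.96), *Oosp1* (0.96) and *Ly6d* (0.94). For *Igkc* the list was *Xbp1* (0.88), *Iglc1* (0.87), *Txndc5* (0.86), *Iglc2* (0.85) and *Gm30211* (0.85), and for *Ighm* it was *Iglc3* (0.90), *Iglc2* (0.89), *Ly6d* (0.89), *Iglc1* (0.87) and *Oosp1* (0.85). Among the members themselves r ran from 0.42 between *Ighd* and *Igkc* to 0.97 between *Cd79a* and *Mzb1*. The points share 3 libraries and differ in depth, and these values rest on the few clusters where the genes are high.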

How the data were processed

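PD-1+CD44+CD8+ T cells were sorted, and libraries were made with the 10x Genomics Chromium 5′ v2 chemistry. The labels name Cell Ranger 2.1.1, R 3.6.1 and GRCm38, whereas the study's methods give a Cell Ranger vdj pipeline. The values deposited by the authors are mean UMI counts of each gene per cell of a cluster, scaled by a factor per cluster. Columns with log2 fold changes and adjusted p-values of the authors' own comparisons were not used. Each mean was a whole multiple of 1 step per column, and dividing by it gave whole UMIs for 100% of values within 0.001. UMIs were summed over clusters and scaled to the total (Python 3.11.15, numpy 2.4.6, pandas 2.3.3, scipy 1.17.1, matplotlib 3.10.9). Each table had its own normalization by the authors, so that levels across libraries rest on this scaling. Exact Poisson intervals were taken for levels, exact binomial intervals for shares and conditional binomial intervals for ratios. With 1 library per group no test was possible. Counts of genes past 2-fold and medians used log2 ratios with a pseudocount of 1 CPM over genes with at least 20 UMIs in both libraries together, and ratios of single members and of their sum used none. The computation was checked on simulated tables. Doublet removal and cell filters are not given in the sources used here. The members and lists were chosen with earlier results of these data known. Genes named are the members, the listed genes, and the 10 most like *Cd79a* and 5 most like *Jchain*, *Mzb1*, *Igkc* and *Ighm*. The V segments named and the threshold of 100 CPM were set with the values in view. The clonotype data were not used here, and some listed genes are not reported here.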

Additional observations from a re-analysis of the deposited data

How the results depend on the processing

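No paired analysis was possible because each group is 1 pooled table, and for the same reason no replicate could be left out. The log2 ratio of the summed members by age (0.31) was 0.34 with a library total that leaves out mitochondrial, ribosomal protein and T cell receptor genes, 0.39 with scaling by the median gene ratio, 0.43 from deposited cluster means averaged over cells, 0.48 without the cluster of each library highest in *Cd79a*, 0.0476 without clusters raised in myeloid or kidney tubule markers, 0.16 without *Igkc*, and -0.0591, the opposite direction, without the 8 clusters with *Jchain* or *Igkc* over 100 CPM (an alternative chosen after seeing the data). By organ (1.93) the same settings gave 1.75, 1.82, 1.71, 2.58, 3.11, 1.64 and 0.00724. The myeloid or tubule setting left out cluster 3 of 12W spleen and clusters 8 and 10 of 28W spleen. In kidney it left out clusters 7 and 12. It thus took out the cluster highest in *Cd79a* in each spleen library but kept that of kidney, cluster 8, and kidney cluster 2. Because this removal was unequal, 3.11 cannot be read as the organ ratio without myeloid or tubule cells.

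The 4 members at least 2-fold higher by age became 2 from cluster means averaged over cells, 1 with a pseudocount of 10 CPM and 2 without the 8 clusters. The 5 by organ became 2 without the 8 clusters. Under the other settings tried the counts were 3 or 4 by age and 4 to 6 by organ. The share of all genes past 2-fold was taken for the main setting only. The direction of single members turned for *Cd79b* by age (0.26) at -0.0249 without the highest *Cd79a* clusters, -0.0326 without the myeloid or tubule clusters and -0.0468 without the 8 clusters, and for *Cd79b* by organ (-0.12) at 0.38 without the myeloid or tubule clusters. For the turn by organ, the cluster highest in *Cd79b* was left out in 28W spleen (cluster 10) and kept in kidney (cluster 8). Without the 8 clusters it also turned by organ for *Cd79a* (-1.06), *Ms4a1* (-1.43), *Ighm* (-0.24) and *Mzb1* (-1.46). For *Cd79a*, *Ms4a1* and *Mzb1* the spleen side of this turn rests largely on 28W spleen cluster 6. *Ighd*, whose intervals held 0 on this scale, turned by age (0.56) to between -0.56 and -0.53 under the 3 settings that leave out clusters, and by organ (0.48) to -0.25 from cluster means averaged over cells, -1.72 without the highest *Cd79a* clusters and -1.67 without the 8 clusters. By organ *Ms4a1* (1.20) was at 0.20 from averaged cluster means and 0.39 without the highest *Cd79a* clusters. The cause was not tested.

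The share of *Cd79a* in its highest cluster was 85.1% for 12W spleen, 91.2% for 28W spleen and 89.7% for kidney. With *Ms4a1* in its place it was 89.8%, 90.3% and 94.9%, and from deposited means times cells 94.3%, 92.1% and 77.9%. Of the 10 genes most like *Cd79a*, 4 were shared with the list by Spearman's rho and 4 with that without the highest clusters. Depth limits *Ighd*, *Ms4a1* and *Pax5* most, and the intervals cover counting error only.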
